A study of Drosophila melanogaster with 16 samples.

Results

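The ecdysone receptor and the early response regulators it controls were followed as 10 genes, namely EcR, usp, Eip74EF, Eip75B, Eip78C, Eip93F, br, ftz-f1, Hr39 and Kr-h1. They were taken by symbol from a table of 16727 genes, and all 10 were found. RNA was sequenced from Drosophila melanogaster females at the stage written LL3/P0, reared at 25 °C. Each of 4 groups had 4 libraries, numbered 1 to 4, and the values of a group are given in the order of these numbers. The groups were fat body with ovaries labelled homozygous for dLmx1a delta1, fat body with ovaries heterozygous for dLmx1a delta1 over the balancer chromosome TM3-GFP, fat body labelled homozygous, and fat body of the same heterozygotes. The animals labelled homozygous were recognised by the absence of the GFP balancer. The genotype field of their samples pairs delta1 with an allele number that counts up from sample to sample, so the sample titles were followed. TM3-GFP was present in every heterozygous library and in no library labelled homozygous, so its presence and the second copy of the mutation cannot be told apart. The number of animals in a library is not given in the sources here. Nothing says that libraries of a group came from separate animals, so each p-value reflects only how much these libraries vary, which may be technical.

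Ecdysone is the steroid that times larval and pupal transitions in insects. Its receptor is a pair of nuclear receptors, EcR, which binds the hormone, and Ultraspiracle, encoded by usp. The occupied receptor switches on a first tier of transcription factors, among them br, Eip74EF and Eip75B, which then turn on late genes and, through further nuclear receptors, ftz-f1 in the prepupa. In the larval fat body, the storage and metabolic organ, these pulses govern stored proteins and, later, the remodelling of the tissue. In the larval ovary they time the formation of germline stem cell niches.

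The libraries held 19022106 to 32755588 reads counted on genes, and 10105 to 10970 genes had a read. Values are the deposited normalised counts, that is reads per gene divided by a size factor for the library. The targeted gene, CG32105 (dLmx1a), had 564, 671, 742 and 682 normalised counts in homozygous-labelled fat body with ovaries and 578, 518, 723 and 649 in heterozygous fat body with ovaries. In fat body alone it had 0 to 4.59 in homozygous-labelled libraries and 0 to 23.5 in heterozygous ones. With ovaries its values in the 2 genotypes overlapped, and the sources at hand do not say whether the counted exons lie in the deleted part, so this gene does not check the genotype labels. The 8 germline markers summed to 2183 to 2673 with ovaries labelled homozygous and 1922 to 2813 with heterozygous ovaries, against 22.4 to 36.7 in homozygous-labelled fat body and 49.1 to 181 in heterozygous fat body. The highest of these fat body sums, 181, and the highest fat body value of CG32105, 23.5, were both in heterozygous fat body replicate 2. Fat body genes were present in every library, and 6 of them (Fbp1, Fbp2 and the Lsp genes) took 49.7% to 58.7% of the normalised counts.

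Levels were compared between genes per kb of exon, over the merged exons of each gene in the Ensembl annotation of the same assembly. These are the exons of all annotated transcripts, from 2 transcripts for usp and Kr-h1 to 16 for br. Exons not used in these tissues would lower the level given for a gene, which was not tested. The mean over the 16 libraries was 574 normalised counts per kb for br, 505 for Eip74EF, 375 for Eip78C and 331 for Eip75B. It was 182 for usp, 160 for Hr39 and 154 for EcR. The lowest levels were 43.0 per kb for Kr-h1, 28.0 for Eip93F and 7.52 for ftz-f1. The early genes br, Eip74EF and Eip75B thus stood above the receptor genes on average, and ftz-f1, the prepupal factor, stood lowest. The place of Kr-h1 depends on how reads were assigned, since 4168 of its 5306 exon bases are shared with the gene CG45075 on the same strand. If reads on those bases were not counted, its level over the 1138 unshared bases would be 201 per kb, above usp, Hr39 and EcR. For ftz-f1, with 2521 of 8581 bases shared with CR45939, the like value is 10.7 per kb, still the lowest. Among neighbours in this order, Eip74EF exceeded Eip78C in 16 of 16 libraries, whereas Hr39 exceeded EcR in 10 and Eip93F exceeded ftz-f1 in 11. Even ftz-f1 was covered by 17 to 129 reads in a library.

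**Figure D1:**
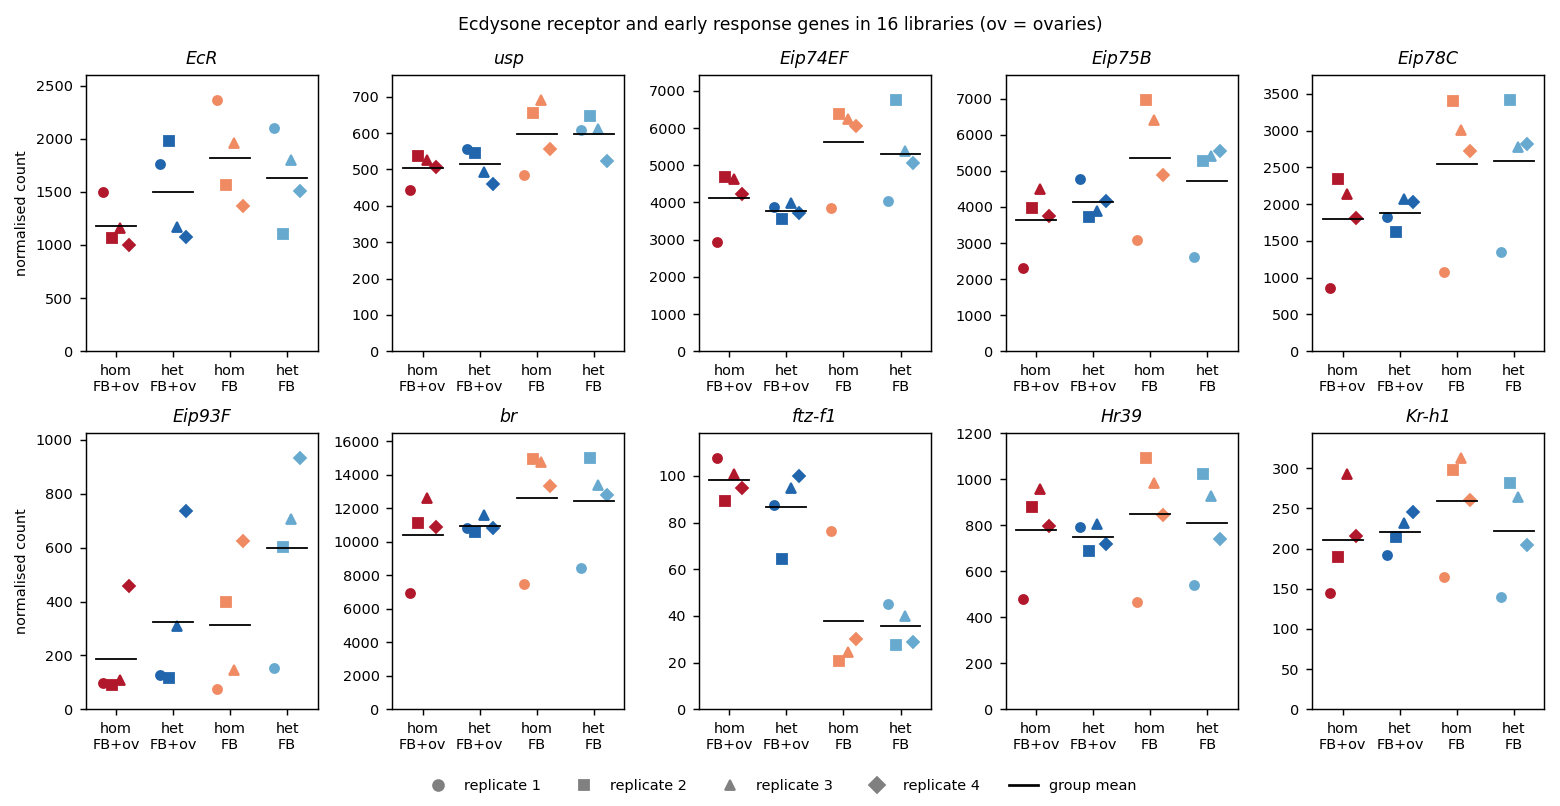
Normalised counts (vertical axis, from 0) of the 10 genes in each library, by group (horizontal axis; hom = homozygous-labelled, het = heterozygous, FB = fat body, ov = ovaries). Marker shape gives the replicate number and the bar the group mean. For ftz-f1 every library with ovaries except heterozygous replicate 2, at 64.5, lies above the highest fat body library, at 76.5.

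The tissue comparison asked which of these genes differed when ovaries were included with the fat body, in each genotype. Of the 10, ftz-f1 alone passed the threshold in the main fit, which held no term for replicate number. It did so in both genotypes, with higher values in the libraries with ovaries. The 9 others had log2 differences from -0.66 to -0.10 in homozygous-labelled libraries and from -1.04 to 0.04 in heterozygous ones. The median of the 10 genes was -0.37 and -0.14, and the median of all genes tested was -0.05 in both. Tests were made with limma on log2(normalised count + 1) for the 7824 genes with a mean of at least 10, with Benjamini-Hochberg adjustment over all of them and a threshold of 0.05. Of all genes tested, 33.0% passed in homozygous-labelled libraries (19.8% higher and 13.2% lower with ovaries) and 29.3% in heterozygous ones (18.6% higher and 10.7% lower), against 1 of 10 here in each. With replicate number as a block, Eip74EF also passed as lower in both genotypes, and EcR in homozygous-labelled libraries. Of all genes, 48.0% passed in homozygous-labelled and 45.1% in heterozygous libraries with that block.

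The ftz-f1 gene (chromosome 3L, 18750607 to 18801309, minus strand, dm6) encodes a nuclear receptor that makes tissues competent to answer the prepupal ecdysone pulse. It had 108, 89.4, 101 and 94.9 normalised counts in homozygous-labelled fat body with ovaries and 87.5, 64.5, 94.7 and 100.1 in heterozygous fat body with ovaries. Fat body alone gave 76.5, 20.6, 24.4 and 29.9 in homozygous-labelled libraries and 45.3, 27.6, 40.1 and 29.0 in heterozygous ones. Within each genotype no library of fat body reached the lowest library with ovaries. In homozygous-labelled libraries the means were 98.1 ± 7.84 with ovaries and 37.9 ± 26.04 in fat body (SD, n = 4 each), a log2 difference of 1.55 ± 0.31 (SE, limma adjusted p = 0.00151). In heterozygous libraries they were 86.7 ± 15.7 with ovaries and 35.5 ± 8.58 in fat body, a log2 difference of 1.27 ± 0.31 (limma adjusted p = 0.00686). Without homozygous-labelled fat body replicate 1, the library at 76.5, the difference in that genotype was 1.94. The ftz-f1 gene shares 2521 exon bases with the non-coding gene CR45939 on the same strand. CR45939 is not among the 16727 genes with values, so it may not have been counted at all. Neither the annotation used nor the rule for assigning shared reads is stated, so the count of ftz-f1 is uncertain. The share of bases does not give the share of reads concerned.

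Markers of several cell types moved with the same comparison. The 7 ovarian somatic markers summed to 3729 to 5436 with homozygous-labelled ovaries and 3746 to 5089 with heterozygous ovaries, against 667 to 1618 and 983 to 1710 in fat body of the same genotypes. The 6 hemocyte markers summed to 2243 to 2749 and 1819 to 2046 with ovaries, against 310 to 870 and 239 to 757 in fat body. With ovaries most of the hemocyte sum came from Ppn and Pxn, which encode extracellular matrix proteins and were the 2 of the 6 that passed as higher in each genotype. The median log2 difference of the 6 was 0.20 in homozygous-labelled and -0.16 in heterozygous libraries, and Hml, NimC1, He and eater did not pass. Hml, for instance, averaged 201 with ovaries and 189 in fat body in homozygous-labelled libraries. The fat body libraries with the highest ftz-f1 value in each genotype, both numbered 1, also had the highest hemocyte sums, 870 and 757. The same was so for the cuticle and epidermis markers, at 222 in the homozygous-labelled and 141 in the heterozygous library. It was so too for the gut markers, at 12.2 and 11.3, and for no other marker list in both genotypes. The part of any of these cells in the difference was not tested, and in bulk RNA fewer cells of a type and less RNA per cell cannot be told apart.

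**Figure D2:**
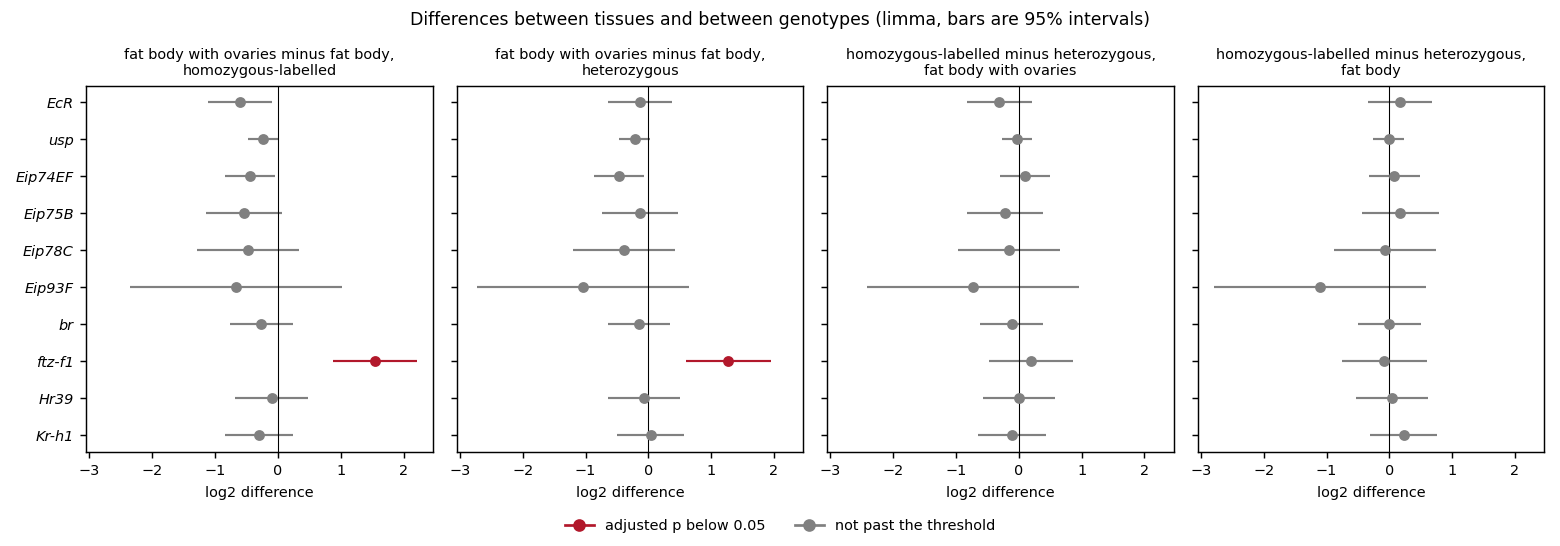
Log2 difference (horizontal axis) of each of the 10 genes with its 95% interval, for the 2 tissue comparisons and the 2 genotype comparisons. Red points passed the threshold in the fit without a replicate block: only ftz-f1 did, at 1.55 and 1.27 in the tissue comparisons. The interval of Eip93F is the widest in every panel.

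The receptor genes themselves had lower values with ovaries that did not pass the test. EcR (2R, 6087873 to 6169087, minus strand) had 1495, 1061, 1163 and 1004 normalised counts in homozygous-labelled fat body with ovaries and 1759, 1976, 1171 and 1072 in heterozygous fat body with ovaries. In fat body it had 2367, 1566, 1964 and 1367 in homozygous-labelled libraries and 2103, 1103, 1803 and 1509 in heterozygous ones. The groups overlapped in both genotypes, and the log2 difference was -0.61 ± 0.24 in homozygous-labelled libraries (limma adjusted p = 0.0652) and -0.13 ± 0.24 in heterozygous ones (limma adjusted p = 0.700). Replicate numbers paired the libraries between homozygous-labelled tissues, and with number as a block 3 of the 10 passed there, against 48.0% of all genes: ftz-f1, Eip74EF and, at the same difference, EcR (limma adjusted p = 0.0149). It also passed without homozygous-labelled fat body with ovaries replicate 1 (limma adjusted p = 0.0463), without homozygous-labelled fat body replicate 4 (0.0424) and without heterozygous fat body replicate 2 (0.0480).

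Its partner usp (X, 2038798 to 2042311, minus strand) had the smallest pooled SD of log2 values within groups of the 10, 0.16, against 0.28 for Eip74EF, the next. Its coefficient of variation was 8.27% to 15.9%, and in single groups others varied less, such as br, Eip74EF and Hr39 in heterozygous fat body with ovaries and ftz-f1 in homozygous-labelled fat body with ovaries. It had 444, 537, 526 and 508 normalised counts in homozygous-labelled fat body with ovaries and 557, 547, 493 and 461 in heterozygous fat body with ovaries. Fat body gave 483, 655, 692 and 557 in homozygous-labelled libraries and 608, 648, 611 and 522 in heterozygous ones. The log2 differences with ovaries were -0.23 ± 0.12 and -0.21 ± 0.12, and neither passed (limma adjusted p = 0.134 and 0.176). Exons of usp overlap Actn over 265 bases on the same strand and CG4313 over 196 bases on the opposite one, so a small part of its reads may belong to these neighbours.

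Among the early genes, Eip74EF (3L, 17558672 to 17619325, minus strand), an ETS-domain transcription factor, came nearest to the threshold. It had 2937, 4694, 4629 and 4224 normalised counts in homozygous-labelled fat body with ovaries and 3883, 3543, 3996 and 3710 in heterozygous fat body with ovaries. The fat body values were 3854, 6383, 6238 and 6047 in homozygous-labelled libraries and 4035, 6763, 5382 and 5054 in heterozygous ones. In heterozygotes all libraries with ovaries lay below all fat body libraries, whereas the homozygous-labelled groups overlapped through fat body replicate 1. The log2 difference was -0.45 ± 0.19 in homozygous-labelled libraries (limma adjusted p = 0.0831) and -0.47 ± 0.19 in heterozygous ones (limma adjusted p = 0.0765). With the replicate block it passed between homozygous-labelled tissues (limma adjusted p = 0.0121). It passed in heterozygotes with edgeR (adjusted p = 0.0487) and DESeq2 (adjusted p = 0.0378). There it also passed without homozygous-labelled fat body with ovaries replicate 1 (limma adjusted p = 0.0485), homozygous-labelled fat body replicate 1 (0.0324) or heterozygous fat body replicate 1 (0.0313).

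Eip75B (3L, 17950953 to 18064696, minus strand) encodes a heme-binding nuclear receptor of the early tier. It had 2302, 3983, 4486 and 3740 normalised counts in homozygous-labelled fat body with ovaries, against 3096, 6973, 6422 and 4880 in homozygous-labelled fat body. In heterozygotes it had 4764, 3720, 3890 and 4168 with ovaries, against 2613, 5283, 5405 and 5543 in fat body. Replicate 1 was the lowest library in 3 of the 4 groups and the highest in heterozygous fat body with ovaries. The log2 differences were -0.53 ± 0.28 and -0.13 ± 0.28 (limma adjusted p = 0.163 and 0.752).

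The br gene (X, 1575132 to 1664869, plus strand), the BTB zinc finger factor Broad that specifies the pupal programme, was the most abundant of the set. It had 6916, 11090, 12600 and 10892 normalised counts in homozygous-labelled fat body with ovaries and 10800, 10604, 11586 and 10807 in heterozygous fat body with ovaries. Fat body had 7485, 14917, 14746 and 13296 in homozygous-labelled libraries and 8461, 15006, 13414 and 12792 in heterozygous ones. Its coefficient of variation was 3.97% in heterozygous fat body with ovaries and 22.5% to 27.7% in the other groups, where replicate 1 was the lowest. The log2 differences were -0.26 ± 0.23 and -0.15 ± 0.23 (limma adjusted p = 0.409 and 0.653).

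Eip78C (3L, 21226609 to 21266503, plus strand), a nuclear receptor related to Eip75B, showed the same arrangement with a wider spread. It had 862, 2343, 2144 and 1817 normalised counts in homozygous-labelled fat body with ovaries, against 1071, 3408, 3002 and 2724 in homozygous-labelled fat body. In heterozygotes the values were 1820, 1616, 2068 and 2034 with ovaries, against 1355, 3420, 2783 and 2812 in fat body. The log2 differences were -0.48 ± 0.38 and -0.39 ± 0.38 (limma adjusted p = 0.351 and 0.468). In both genotypes the fat body values of replicates 2 to 4 lay above every library with ovaries, and replicate 1 did not.

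Hr39 (2L, 21237250 to 21259675, plus strand), a nuclear receptor related to ftz-f1, was about level across tissues. It had 479, 881, 956 and 797 normalised counts in homozygous-labelled fat body with ovaries, 795, 687, 805 and 719 in heterozygous fat body with ovaries, 468, 1094, 985 and 846 in homozygous-labelled fat body and 540, 1024, 927 and 743 in heterozygous fat body. The log2 differences with ovaries were -0.10 ± 0.27 (95% interval -0.68 to 0.47) and -0.07 ± 0.27 (-0.64 to 0.51). Kr-h1 (2L, 6082603 to 6096498, plus strand), the zinc finger factor that carries the juvenile hormone signal, had 145, 189, 293 and 216 in homozygous-labelled fat body with ovaries and 192, 215, 232 and 245 in heterozygous fat body with ovaries. It had 165, 297, 313 and 261 in homozygous-labelled fat body and 140, 281, 264 and 204 in heterozygous fat body. Its log2 differences were -0.30 ± 0.25 and 0.04 ± 0.25, and neither passed (limma adjusted p = 0.379 and 0.924). Kr-h1 shares 4168 of its 5306 exon bases with CG45075, which had no read in any library, and again the rule for assigning shared reads is not stated, so its count is uncertain.

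Eip93F (3R, 21949114 to 22014539, plus strand), the factor that specifies adult fate and the death of larval tissue, varied most. It had 97.2, 89.4, 110 and 457 normalised counts in homozygous-labelled fat body with ovaries and 126, 117, 310 and 737 in heterozygous fat body with ovaries. Fat body gave 75.0, 398, 147 and 625 in homozygous-labelled libraries and 153, 602, 705 and 933 in heterozygous ones. Replicate 4 was the highest library of every group, and the coefficient of variation within groups was 54.8% to 95.2%. The log2 differences with ovaries, -0.66 ± 0.79 and -1.04 ± 0.79, were within this spread (limma adjusted p = 0.545 and 0.341).

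Since libraries numbered 1 stood apart for many of these genes, the tissue comparison was repeated on the 12 libraries numbered 2 to 4, a choice made after the values were seen. Then 5 of the 10 passed in each genotype, ftz-f1 higher and Eip74EF, Eip75B, Eip78C and br lower with ovaries. Of all 7811 genes tested in these libraries, 39.6% passed in homozygous-labelled ones and 36.6% in heterozygous ones. In homozygous-labelled libraries the log2 differences were -0.46 for Eip74EF, -0.57 for Eip75B, -0.54 for Eip78C and -0.31 for br. In heterozygous libraries they were -0.60 for Eip74EF, -0.46 for Eip75B, -0.66 for Eip78C and -0.32 for br, and the limma adjusted p-values of these 8 differences ran from 0.0014 for Eip74EF to 0.0216 for br. The value of ftz-f1 was 1.90 in homozygous-labelled libraries and 1.39 in heterozygous ones. Leaving out homozygous-labelled fat body replicate 1 alone also gave 5 calls in that genotype, with usp at -0.33, Eip74EF at -0.62, Eip75B at -0.77 and Eip78C at -0.86 below and ftz-f1 above, against 42.5% of all genes.

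Fat body markers had lower values with ovaries in the same comparison of all 16 libraries. Of the 8 markers, 2 passed as lower in each genotype, Mtp at -0.55 and -0.42 and Rfabg at -0.66 and -0.62, and the median of the 8 was -0.52 in homozygous-labelled and -0.49 in heterozygous libraries. They summed to 11177106 to 12974192 with homozygous-labelled ovaries and 10763317 to 11810403 with heterozygous ovaries, against 17308991 to 18371450 and 15137364 to 16318596 in fat body of the same genotypes. Their part in the lower values of the 4 early genes was not tested.

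The lower values with ovaries depended on how libraries were scaled, whereas the higher value of ftz-f1 did not. Total normalised counts were 20931996 to 24257263 in libraries with ovaries and 27494697 to 31919655 in fat body. When all libraries were scaled to equal totals, the median of all genes tested moved to 0.37 in homozygous-labelled libraries and 0.34 in heterozygous ones. On that scale Eip74EF was at -0.02 and -0.08, Eip75B at -0.10 and 0.26, Eip78C at -0.05 and 0.00 and br at 0.17 and 0.24, none past the threshold. Relative to the median gene, these 4 genes lay below 0 on either scale. On the same scale ftz-f1 was at 1.97 in homozygous-labelled libraries and 1.66 in heterozygous ones (limma adjusted p = 0.000186 and 0.000896). It kept its call under all 28 alternative settings tried in each genotype.

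**Figure D3:**
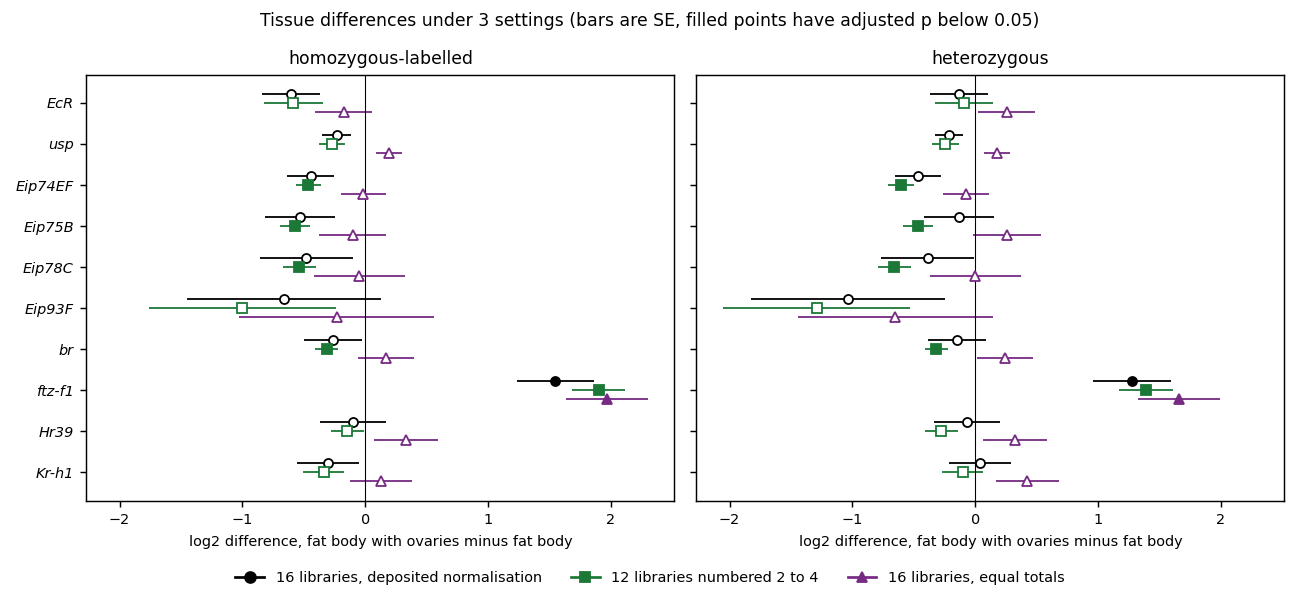
Log2 difference between fat body with ovaries and fat body (horizontal axis) with its SE, for homozygous-labelled (left) and heterozygous (right) libraries, under the deposited normalisation of 16 libraries, in the 12 libraries numbered 2 to 4, and with 16 libraries at equal totals. Filled points passed the threshold: ftz-f1 under all of these, and Eip74EF, Eip75B, Eip78C and br only, among these settings, without the libraries numbered 1.

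The genotype comparison asked whether these genes differed between libraries labelled homozygous for dLmx1a delta1 and heterozygous ones. None of the 10 passed, with ovaries or in fat body alone. Of all genes tested 2.11% passed with ovaries and 5.39% in fat body. Log2 differences with ovaries ran from -0.73 to 0.19 (limma adjusted p = 0.667 to 0.997), and in fat body from -1.11 to 0.23 (limma adjusted p = 0.485 to 0.997). The number of the 10 with an unadjusted p under 0.05 was 0 in each tissue, and edgeR and DESeq2 also called 0. Of all genes, edgeR called 1.98% with ovaries and 4.56% in fat body, and DESeq2 5.32% and 9.53%. With the replicate block 0 of the 10 passed in either tissue, against 8.44% of all genes with ovaries and 15.1% in fat body.

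For 9 of the 10 genes the 95% interval of the genotype difference, in the fit without the replicate block, lay within 1 log2 unit of 0 in both tissues. A change of that size or more thus fell outside it. For the receptor these intervals were -0.82 to 0.20 for EcR with ovaries and -0.35 to 0.68 in fat body, and -0.28 to 0.22 for usp with ovaries and -0.26 to 0.24 in fat body. Eip74EF was at 0.10 (-0.30 to 0.50) with ovaries and 0.08 (-0.32 to 0.48) in fat body, and br at -0.11 (-0.61 to 0.39) and 0.00 (-0.50 to 0.50). The ftz-f1 difference was 0.19 (-0.48 to 0.86) with ovaries and -0.08 (-0.75 to 0.59) in fat body. Eip93F was the exception. Its mean was 188 ± 179 in homozygous-labelled and 322 ± 291 in heterozygous fat body with ovaries, and 311 ± 251 in homozygous-labelled and 598 ± 327 in heterozygous fat body (SD, n = 4 each). Its intervals, -2.42 to 0.96 with ovaries and -2.80 to 0.58 in fat body, did not exclude a difference of more than 1 log2 unit.

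Whether the tissue difference itself differed between genotypes was tested as an interaction. None of the 10 passed (limma adjusted p = 0.99995 for each), and 0 had an unadjusted p under 0.05. Of all genes limma called 0.0511%. Both edgeR and DESeq2 called 0 of the 10, against 0.0511% and 0.256% of all genes. For ftz-f1 the tissue difference of homozygous-labelled libraries minus that of heterozygous ones was 0.27 ± 0.44 (95% interval -0.68 to 1.22).

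Much of the spread within groups went with the replicate numbers. With the group means removed, 6 of the 10 genes differed between numbers (limma F test, Benjamini-Hochberg over all genes), against 31.7% of all genes tested. These were Eip93F (adjusted p = 0.00800), Kr-h1 (0.00994), Eip78C (0.0115), br (0.0121), Hr39 (0.0236) and Eip74EF (0.0307). The test was not passed by EcR (limma adjusted p = 0.0661), Eip75B (0.0610), ftz-f1 (0.113) and usp (0.196). The share of a gene's squared deviations within groups that went with the number ran from 44.5% for usp to 76.8% for Kr-h1. The labels do not say what a number marks.

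Libraries numbered 1 carried less of most of the early genes and more EcR, though EcR, Eip75B and ftz-f1 did not pass the F test. Number 1 minus the mean of the other numbers, over groups on the log2 scale, was -0.99 for Eip78C, -0.64 for Eip75B, -0.64 for Kr-h1, -0.63 for Hr39, -0.60 for br and -0.44 for Eip74EF. It was 0.49 for EcR and 0.58 for ftz-f1, both above the mean of the other numbers in 4 of 4 groups. For 5 of these genes number 1 of heterozygous fat body with ovaries was not low or lay close to the others: its Eip75B lay 0.28 above its group's other libraries, Hr39 0.11 and Eip74EF 0.05 above, and br 0.03 and Eip78C 0.06 below. In the same library EcR lay 0.38 above the others, Kr-h1 0.26 below and Eip93F 1.24 below. Replicate 2 of that group had the highest EcR. For ftz-f1 number 1 lay 1.59 above the others in homozygous-labelled fat body and 0.50 above in heterozygous fat body. With ovaries it lay 0.18 above in homozygous-labelled and 0.04 above in heterozygous libraries.

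Of the technical values, depth did not move with number 1 alike in all groups. Homozygous-labelled fat body replicate 1 was the shallowest library, at 19022106 reads, but heterozygous fat body replicate 1 was the deepest of its group, at 29741067. With ovaries, replicate 1 was the shallowest of the heterozygous group, at 21483771, and neither extreme in the homozygous-labelled group, at 23770813. The share of the 6 fat body genes was the highest of its group in number 1 of homozygous-labelled fat body with ovaries (54.2%), homozygous-labelled fat body (58.7%) and heterozygous fat body (57.0%), but not in heterozygous fat body with ovaries (50.1%). These are the same groups in which most of the early genes were low. The part of depth or of this share in the differences between numbers was not tested.

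Eip93F followed another number. Its libraries numbered 4 were the highest in 4 of 4 groups, by 1.87 on the log2 scale over the other numbers, a 3.66-fold higher value. Its libraries numbered 1 lay 1.60 below the others on that scale. In the 12 libraries numbered 2 to 4, none of the 10 genes passed the F test (limma adjusted p = 0.0767 for Eip93F, the lowest), 3 had an unadjusted p under 0.05, and 6.91% of all genes passed. Without heterozygous fat body with ovaries replicate 1, Eip75B passed too (limma adjusted p = 0.000497), and EcR passed without heterozygous fat body with ovaries replicate 2 (limma adjusted p = 0.00346). Without heterozygous fat body replicate 1 the calls for br (limma adjusted p = 0.0521), Hr39 (0.0821) and Eip74EF (0.102) were lost. This left 3, where the share of all genes that passed was 17.5%. The call for Eip74EF was also lost without homozygous-labelled fat body with ovaries replicate 2 (limma adjusted p = 0.0598), 3 (0.0503) or 4 (0.0501), without homozygous-labelled fat body replicate 2 (0.0587) or 3 (0.0509) and at equal totals (0.0640), and in all under 12 of 26 alternatives. Hr39 and Eip74EF lost theirs without replicate 1 of homozygous-labelled fat body with ovaries (limma adjusted p = 0.0858 for Hr39 and 0.113 for Eip74EF) or of homozygous-labelled fat body (0.0899 for Hr39 and 0.122 for Eip74EF).

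**Figure D4:**
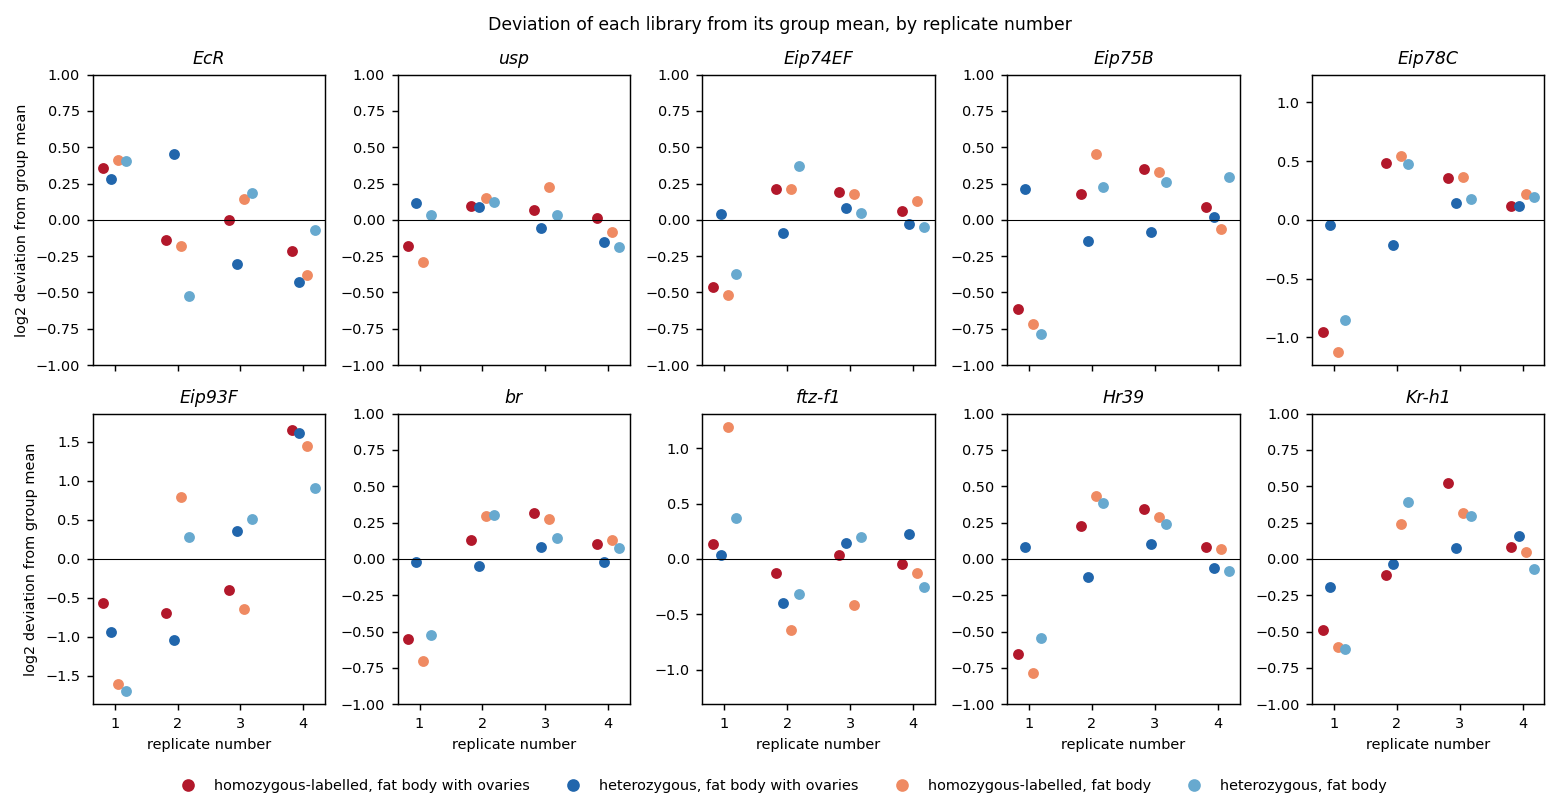
Deviation of each library from its group mean on the log2 scale (vertical axis, which is wider for Eip78C, Eip93F and ftz-f1) by replicate number (horizontal axis), with 1 colour per group. For Eip74EF, Eip75B, Eip78C, br and Hr39 number 1 lies low in the groups other than heterozygous fat body with ovaries, and for Eip93F number 4 lies high in all groups.

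Genes with the most similar profiles were sought among all 7823 other genes tested, by the root mean square difference of log2 values over the 16 libraries after each gene was centred on its own mean. This is a description without a test, and the libraries share depth and scaling. Several of the 10 lay nearest to each other: br and Hr39 differed by 0.113, and br was also the nearest gene to Kr-h1, at 0.153. For Eip75B the nearest genes were Klp98A (0.161), tai (0.166), which encodes the ecdysone receptor coactivator Taiman, and br (0.168). The nearest gene to Eip78C was E23, an ecdysone-induced ABC transporter gene, at 0.0838, well within the spread of Eip78C about its own mean of 0.557. Eip74EF lay nearest to Sec24AB (0.107), EcR to CG42514 (0.133), usp to Vps35 (0.084) and ftz-f1 to CG8771 (0.157). The closest gene to Eip93F, Mmp2, a matrix metalloprotease gene, differed by 0.369, where the spread of Eip93F about its own mean was 1.24.

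The other genes of the ecdysone and juvenile hormone pathways were read from lists chosen by function, of which 90 of 91 genes were in the table. In the tissue comparison of homozygous-labelled and then heterozygous libraries, 2 and 2 of the 6 coactivators and corepressors tested were higher with ovaries and none lower. For the other nuclear receptors, 4 of 7 were lower and none higher in each genotype. Among early and late targets, 2 of 15 were higher and 1 lower in homozygous-labelled libraries, and 3 higher and 2 lower in heterozygous ones. Ecdysteroid synthesis, uptake and clearance had 1 of 8 higher and 2 lower in each. Juvenile hormone genes had 2 of 9 higher and 2 lower in homozygous-labelled libraries, and 2 higher and 1 lower in heterozygous ones. Temporal factors had 2 of 7 higher and 1 lower in homozygous-labelled libraries, and 3 higher and none lower in heterozygous ones. Cell death targets had 2 of 6 higher and 2 lower in homozygous-labelled libraries, and 1 higher and 1 lower in heterozygous ones. These counts stand beside 19.8% higher and 13.2% lower of all genes in homozygous-labelled libraries, and 18.6% higher and 10.7% lower in heterozygous ones, and many of them lie near those shares.

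The largest of these tissue differences was that of ImpE1, an ecdysone-inducible gene first found in imaginal discs. It averaged 145 ± 28.3 normalised counts with ovaries and 2.80 ± 1.62 in fat body in homozygous-labelled libraries, and 104 ± 19.0 with ovaries and 3.37 ± 4.14 in fat body in heterozygous ones (SD, n = 4 each; log2 differences 5.36 and 5.09, limma adjusted p = 2.32e-06 and 4.72e-06). ImpE3 was higher by 1.53 and 1.43 on that scale, and ab, a BTB zinc finger gene, by 4.56 and 3.49. The coactivator gene rig, which encodes Rigor mortis, was higher by 1.72 and 1.63, and E(bx), a chromatin remodelling subunit gene, by 0.38 and 0.48. Higher too were mld, a regulator of ecdysteroid synthesis genes, by 1.79 and 2.18, Imp by 0.75 and 0.60 and the caspase gene Dcp-1 by 1.29 and 0.90. These calls kept their direction and their side of the threshold in both genotypes under all alternatives that gave a value. Calls that some alternatives lost were those of JhI-21, higher by 0.70 and 0.68, and, in heterozygotes, chinmo, higher by 0.96, and FK506-bp1, higher by 1.55. FK506-bp1 in homozygous-labelled libraries averaged 1308 ± 318 with ovaries and 623 ± 571 in fat body (SD, n = 4 each). In homozygous-labelled libraries W (hid), a cell death gene, was higher by 1.93, and in heterozygous ones ImpL3 by 2.85.

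Lower values with ovaries were smaller. Hnf4 was at -0.50 in homozygous-labelled libraries and svp at -0.45 in heterozygous ones, with Hr78 at -0.47 and -0.32 and ERR at -0.49 and -0.39 in both. At most 3 called genes per list and comparison are named, so a gene given for 1 genotype may differ in the other too. In homozygous-labelled libraries svp averaged 2627 with ovaries and 3370 in fat body. In heterozygous ones Hnf4 averaged 1073 with ovaries and 1316 in fat body. The ecdysone importer gene Oatp74D was at -0.35 in heterozygotes, Npc1a, a sterol transport gene, at -0.50 and -0.43, and crc at -0.46 in homozygous-labelled libraries, as was Syp at -0.45. In heterozygous libraries crc averaged 10893 with ovaries and 14472 in fat body. The juvenile hormone receptor genes gce, at -0.83 and -0.49, and Met, at -0.31 in homozygous-labelled libraries, were also lower. Cyp6t3 was at -0.84 in homozygous-labelled libraries, and the caspase gene Ice at -0.25 and -0.27. Each of these calls was lost when libraries were scaled to equal totals. On that scale Met (0.12) and Ice (0.18) in homozygous-labelled libraries, and Hr78 (0.07), Oatp74D (0.04) and Ice (0.12) in heterozygous ones, were above 0 though below the median of all genes (0.37 and 0.34), and none passed.

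Between genotypes, the lists for coactivators, other nuclear receptors, targets, ecdysteroid synthesis and temporal factors had none of 43 genes past the threshold with limma in either tissue. An unadjusted p under 0.05 was found for 4 of the 43 with ovaries and 4 in fat body, edgeR called 0 and 1, and DESeq2 called 2 and 2. Of all genes, limma called 2.11% with ovaries and 5.39% in fat body, edgeR 1.98% and 4.56%, and DESeq2 5.32% and 9.53%. At such shares few calls among 43 genes would be found in any list. The genes that passed were lower in libraries labelled homozygous. Jheh2, a juvenile hormone epoxide hydrolase gene, averaged 1080 ± 67.1 in homozygous-labelled and 1856 ± 131 in heterozygous fat body with ovaries, and 1001 ± 141 in homozygous-labelled and 1902 ± 291 in heterozygous fat body (SD, n = 4 each; log2 differences -0.78 and -0.92, limma adjusted p = 0.00254 and 0.000338). Nc, the initiator caspase gene Dronc, averaged 186 ± 30.0 in homozygous-labelled and 325 ± 57.9 in heterozygous fat body with ovaries, and 148 ± 17.0 in homozygous-labelled and 332 ± 70.7 in heterozygous fat body (log2 differences -0.80 and -1.14, limma adjusted p = 0.0325 and 0.0015). In fat body Ice was at -0.33 (limma adjusted p = 0.0300) and W at -1.53 (limma adjusted p = 0.0401). Jheh2 in both tissues and Nc in fat body kept their calls under all 28 alternatives, whereas Nc with ovaries lost its call under 8, Ice in fat body under 8 and W in fat body under 14.

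Between replicate numbers, 2 of 6 coactivators and corepressors, 3 of 7 other nuclear receptors, 6 of 15 targets, 3 of 8 synthesis and uptake genes, 5 of 9 juvenile hormone genes, 1 of 7 temporal factors and 2 of 6 cell death targets passed, against 31.7% of all genes. E23, the gene nearest to Eip78C, had 1690, 4382, 3850 and 3616 normalised counts in homozygous-labelled fat body with ovaries and 3718, 3475, 4002 and 3958 in heterozygous fat body with ovaries. It had 2250, 7336, 6468 and 5822 in homozygous-labelled fat body and 2853, 6464, 6087 and 5817 in heterozygous fat body, low in number 1 of the same groups as Eip78C. Hr4 and Hr46 (Hr3), nuclear receptors of the ecdysone cascade, were at 798 and 158 in number 1 of homozygous-labelled fat body with ovaries, where the other numbers had at least 2352 and 308. By contrast shd, which encodes the enzyme that makes the active hormone from ecdysone, was highest in number 1 of these groups. It had 2706 in number 1 of homozygous-labelled fat body with ovaries, 3519 in number 1 of homozygous-labelled fat body and 2891 in number 1 of heterozygous fat body, against at most 1822, 2047 and 1290 in the other numbers of these groups. Number 1 of heterozygous fat body with ovaries had 1221, within the range of its group.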

How the data were processed

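The table deposited by the authors gives a signal per gene and library, counts divided by a size factor, and its name credits DESeq2. Trimmomatic 0.36, STAR 2.5.2b, featureCounts of Subread 1.5.0p3 and dm6 are named in the submitters' processing notes. Annotation, strand setting and the treatment of shared reads were not given in the sources used here. Whole reads were recovered for 100.0% of values (tolerance 1e-06), though in 2 libraries 1 read is worth so near 1 that this rests on division alone.

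Values were fitted as log2(value + 1) with limma 3.58.1 in R 4.3.3 (trend, 1 mean per group over 16 libraries), for 7824 genes with a mean of at least 10, with Benjamini-Hochberg adjustment at 0.05. The code of the tests was run on simulated counts with the same setting of spread for all genes. That run does not measure error rates in the real libraries, whose spread differs between genes. edgeR 4.0.16 and DESeq2 1.42.0 ran on recovered reads as alternatives, as did other pseudocounts, filters and scalings, a replicate block, and leaving out libraries. Precision is limited by 4 libraries a group at the depths given. Positions and exon lengths came from Ensembl release 115, the same assembly. The 10 genes, the lists and the rule for naming genes (up to 3 called genes per list and comparison with the smallest p, and the nearest profiles) were chosen with earlier results of these data known.

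The labels do not say what a replicate number marks. Same-number correlations of deviations from group means, across genes, were 0.610, 0.424, 0.198 and 0.476 between homozygous-labelled tissues. Homozygous-labelled and heterozygous libraries gave 0.253, 0.417, 0.173 and 0.415 where ovaries were included, and fat body alone gave 0.676, 0.385, 0.291 and 0.213. All exceed 0.1, so numbers were taken to pair the libraries in these 3 comparisons.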

Additional observations from a re-analysis of the deposited data

Results flagged for a closer look

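Of 40 sets of 4 libraries (10 genes in 4 groups), 4 held a library whose gap to its nearest neighbour was a larger part of the whole range than Dixon's 95% critical value allows, which chance gives in about 1 in 20 sets. In homozygous-labelled fat body with ovaries, Eip93F had 457 normalised counts in replicate 4 against 89.4 to 110 in the others (gap 0.944 of the range). In homozygous-labelled fat body, replicate 1 had the lowest Eip74EF, 3854 against 6047 to 6383 (0.867), and the highest ftz-f1, 76.5 against 20.6 to 29.9 (0.833). In heterozygous fat body, replicate 1 had the lowest Eip75B, 2613 against 5283 to 5543 (0.911). The 3 values from libraries numbered 1 go the same way as number 1 in most other groups, and the Eip93F value goes the same way as number 4 in every group.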

How the results depend on the processing

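With the replicate block, 3 of the 10 genes passed in the homozygous-labelled tissue comparison (ftz-f1, EcR and Eip74EF), against 1 without it. Same-number correlations between heterozygous tissues were 0.284, 0.015, 0.040 and 0.225, so there the libraries share only a number. The block gave 2 there (ftz-f1 and Eip74EF), against 45.1% of all genes, and numbers 1 and 4 alone correlated best with their own number. It changed no call between genotypes or in the interaction. In the homozygous-labelled tissue comparison DESeq2 called 2 (37.3% of all genes), the set without heterozygous fat body replicate 2 and homozygous-labelled fat body replicate 1 called 5 (43.3%), and replicate numbers 2 to 4 called 5 (39.6%). In the heterozygous one edgeR called 2 (29.5%), DESeq2 2 (33.7%), the 8 libraries compared alone 2 (33.2%), and numbers 2 to 4 called 5 (36.6%). Leaving out 1 library gave 1 to 5 calls in the homozygous-labelled comparison, against 26.4% to 42.5% of all genes. In the heterozygous one it gave 1 to 2, against 21.5% to 35.1%. The genotype comparisons gave 0, against 0.767% to 3.37% of all genes with ovaries and 2.56% to 6.23% in fat body. The interaction gave 0, against at most 0.0894%. The F test of replicate number called 3 to 8 when 1 library was left out, against 17.5% to 38.2% of all genes. It called 2 without the 2 libraries named above (16.4%) and 0 in numbers 2 to 4 (6.91%), where there are fewer libraries. At equal totals, differences with ovaries that were negative became positive: in homozygous-labelled libraries 0.20 for usp and 0.17 for br, and in heterozygous ones 0.26 for Eip75B, 0.0012 for Eip78C and 0.24 for br. At equal totals of the genes other than the 6 fat body genes, chosen after seeing the data, they were 0.065 for usp and 0.035 for br, and 0.13 for Eip75B and 0.11 for br. The list gene Ice was then at 0.044 in homozygous-labelled libraries. At equal totals the list genes Met and Ice were at 0.12 and 0.18 in homozygous-labelled libraries, and Hr78, Oatp74D and Ice at 0.071, 0.039 and 0.12 in heterozygous ones. All of these equal-total values lie below the median of all genes on that scale, 0.37 and 0.34. Among genes never called, 6 of 10 changed sign under some setting in the genotype comparison with ovaries, 8 in fat body and 6 in the interaction. Of the 45 calls of named list genes, 21 were kept under every alternative that gave a value. Causes of these shifts were not tested. The lowest read number of any of the 10 genes in a library was 17, for ftz-f1, whose counting error is therefore the largest.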

Other observations

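The summed level of 7 salivary gland markers reached 3377 normalised counts in homozygous-labelled fat body with ovaries replicate 2, against at most 163 in any homozygous-labelled fat body library, 103 in any heterozygous library with ovaries and 82.9 in any heterozygous fat body library. Eig71Ee, a late ecdysone-induced salivary gene of that list, had 1317 in that library, against 2.35 to 16.4 in the other libraries of its group, 0 to 13.1 in heterozygous fat body with ovaries, 0.998 to 24.4 in homozygous-labelled fat body and 0 to 8.49 in heterozygous fat body. Of the 10 regulators, this library held neither the highest nor the lowest value of its group for EcR, Eip75B, br, Hr39 and Kr-h1, the highest for usp, Eip74EF and Eip78C, and the lowest for Eip93F and ftz-f1.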
